A study of Mus musculus with 8 samples.

Results

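The transcripts of 8 genes were examined, the keratins Krt7, Krt8, Krt18 and Krt19 of simple epithelia and the uroplakins Upk1a, Upk1b, Upk2 and Upk3a. They are 8 of 17305 genes named on the array and were chosen by symbol, without use of their values, and every non-control probe whose RefSeq accession belonged to one of them was taken. This gave 10 probes of 41174 on the array, 5 for keratins and 5 for uroplakins, with 2 probes each for Krt8 and Upk1a. Kidneys of p53 null embryos were compared with kidneys of p53 wild-type embryos, both C57BL/6 and at embryonic day 15.5. Each of 8 arrays with 2 colours held null RNA in one dye and wild-type RNA in the other, and all ratios are log2 of null over wild type. The labels give 3 biological replicates, of which replicate 1 was run on 4 arrays and replicates 2 and 3 on 2 each, and every array had a partner with the dyes exchanged. Replicate 1 lay on slide 1 and replicates 2 and 3 on slide 2, so replicate 1 and slide 1 cannot be told apart. The deposited files number the wild-type RNA of replicates 2 and 3 alike, so these replicates may share one wild-type extract, which the labels do not settle. The labels state neither the null allele nor how many embryos went into each RNA. Where nothing shows that the RNAs came from separate litters, a p-value measures only the spread between these samples.

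Keratins form intermediate filaments from pairs of one type II and one type I protein. Krt7 and Krt8 are type II, Krt18 and Krt19 are type I, and Krt8 with Krt18 is the basic pair of single-layered epithelia. In the kidney these keratins mark the ureteric bud, the collecting ducts that grow from it, and the urothelium of the renal pelvis and ureter. Uroplakins build the rigid plaques on the apical face of the urothelium that keep urine from crossing it. Upk1a and Upk1b are tetraspanins, each of which leaves the endoplasmic reticulum with a partner that crosses the membrane once, Upk2 for Upk1a and Upk3a for Upk1b. Upk1b is also made by mesothelium, the serosal lining of the body cavities. In whole-kidney RNA, fewer cells of a type and less RNA per cell cannot be told apart.

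The RefSeq promoter table for the GRCm38.p6 build held 5 of the 8 genes. The 250 bases before the start of 4 of them are shown because these genes lie on chromosome 15 and had different ratio patterns, given below them. Capitals mark GGGCGG or TATAAA on either strand, which are the GC box and the TATA box.
Krt7: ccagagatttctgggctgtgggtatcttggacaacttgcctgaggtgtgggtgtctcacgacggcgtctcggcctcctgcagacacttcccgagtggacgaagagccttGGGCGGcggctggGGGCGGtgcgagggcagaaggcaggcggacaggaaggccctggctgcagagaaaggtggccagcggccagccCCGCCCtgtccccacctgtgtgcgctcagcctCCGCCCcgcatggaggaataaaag
Krt8: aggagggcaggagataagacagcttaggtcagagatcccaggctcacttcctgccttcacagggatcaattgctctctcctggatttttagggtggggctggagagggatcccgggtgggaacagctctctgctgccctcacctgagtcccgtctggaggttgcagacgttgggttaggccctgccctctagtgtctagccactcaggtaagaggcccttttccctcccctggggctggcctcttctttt
Krt18: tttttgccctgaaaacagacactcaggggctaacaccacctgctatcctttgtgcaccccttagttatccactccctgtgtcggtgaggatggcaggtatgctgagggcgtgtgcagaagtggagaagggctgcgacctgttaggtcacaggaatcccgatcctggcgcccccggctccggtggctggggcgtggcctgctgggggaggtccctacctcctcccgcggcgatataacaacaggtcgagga
Upk3a: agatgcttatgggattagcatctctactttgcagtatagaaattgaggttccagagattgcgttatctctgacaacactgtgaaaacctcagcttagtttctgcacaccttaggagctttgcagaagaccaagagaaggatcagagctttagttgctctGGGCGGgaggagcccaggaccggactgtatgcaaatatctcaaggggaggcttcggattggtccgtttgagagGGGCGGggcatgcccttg
The Krt7 window was chr15:101412153-101412402 on the plus strand, the Krt8 window chr15:102004343-102004592 on the minus strand, the Krt18 window chr15:102027966-102028215 on the plus strand and the Upk3a window chr15:85016891-85017140 on the plus strand. The GC content was 66.0% for Krt7, 58.0% for Krt8, 60.4% for Krt18 and 49.6% for Upk3a, against a median of 52.4% over all windows. GGGCGG occurred 4 times in the Krt7 window, 2 times in that of Upk3a and not in those of Krt8 and Krt18. Of 32851 windows in the table, 32.7% held it. TATAAA was in none of the 5 windows and in 12.4% of all, and TGANTCA, which AP-1 binds, in none of the 5 and in 6.75% of all. AGATAA, which GATA factors bind, was in the windows of Krt8 and Upk3a and in 9.99% of all. A match to the p53 half-site lay in the Upk3a window, with its first base at −13 and overlapping the last GGGCGG, and in 7.13% of all windows. These are matches of letters only.

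Detection of probes differed between the slides, and the number of arrays limits the precision. In null RNA, 57.8% to 60.6% of probes per array were well above background on slide 1 and 50.1% to 51.4% on slide 2. In wild-type RNA it was 60.3% to 62.8% on slide 1 and 46.9% to 48.0% on slide 2. Trp53, the targeted gene, had −1.22, −0.47 and −0.45 in replicates 1, 2 and 3 on its probe with 10 spots and was lower in null RNA on all 8 arrays (limma, adjusted p = 0.270). A second Trp53 probe, well above background in both RNAs on all 8 arrays, had 0.036, 0.28 and 0.18 and was lower in null RNA on 2 of them (limma, adjusted p = 0.377). Which part of Trp53 the null allele lacks is not stated in the labels. Over the 20865 tested probes the replicate ratios correlated at 0.06 between replicates 1 and 2, −0.15 between 1 and 3, and 0.93 between 2 and 3, a description across probes. The log2 levels of replicates 2 and 3 differed with an SD over probes of 0.175 in null RNA and 0.114 in wild-type RNA, against 0.824 to 0.859 between replicate 1 and either of them. Xist, a marker of female cells, exceeded the detection limit in null RNA on 2 arrays and in wild-type RNA on 8. The labels state no sex, and its part in the results was not tested.

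The keratins and Upk3a were readily measured, and the tetraspanins and Upk2 were at or near background. The spots of Krt7, Krt18, Krt19, Upk3a and both Krt8 probes were well above background in both RNAs on all 8 arrays. Upk1b was well above background in null RNA on all 8 arrays and in wild-type RNA on 4. On the first array of replicate 1 its spot was flagged as an outlier in both RNAs, which leaves 7 usable arrays in null and 3 in wild-type RNA. Those 4 were the arrays of replicate 1, and wild-type Upk1b was not well above background on any array of slide 2. The same pattern was shown by 379 of the tested probes (1.82%). Upk1a was above background on 1 array in null RNA and 3 in wild-type RNA with one probe, and on 0 and 1 with the other. Upk2 was above background on 2 arrays in null RNA and 3 in wild-type RNA. The 7 probes of Krt7, Krt8, Krt18, Krt19, Upk1b and Upk3a passed the filter on dim probes and were tested, while Upk1a and Upk2 are given as values with no test. Upk1b passed the filter through null RNA only.

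**Figure D1:**
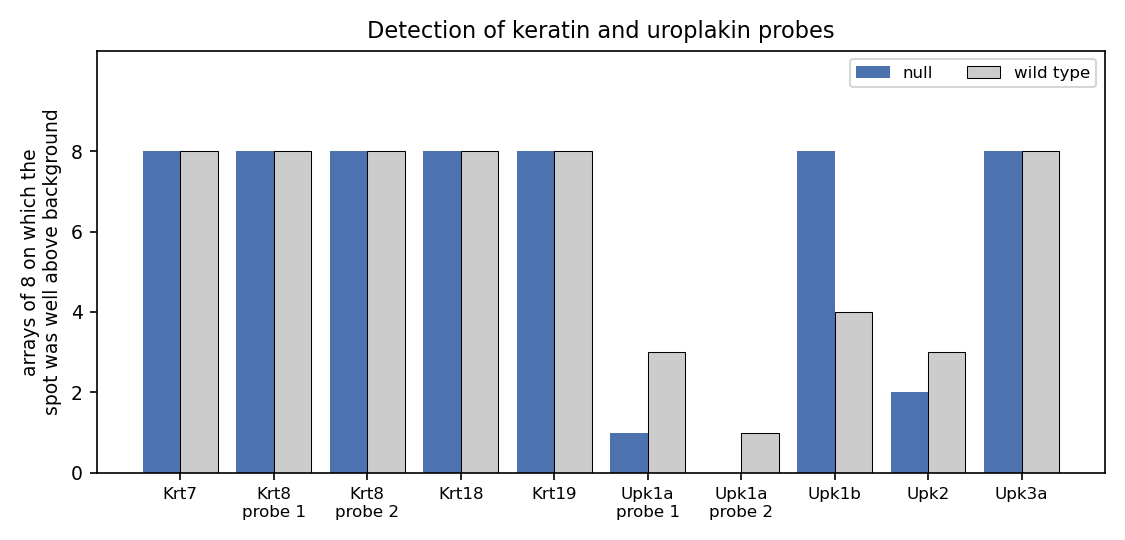
Number of the 8 arrays (vertical axis) on which each keratin or uroplakin probe was well above background, with null RNA left and wild-type RNA right. The 5 keratin probes and Upk3a reached 8 in both RNAs, and Upk1b reached 8 in null and 4 in wild-type RNA, of which 1 each is the outlier spot.

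No keratin or uroplakin probe passed the threshold in the test over all 3 replicates (limma with Benjamini-Hochberg adjustment over 20865 probes, threshold 0.05), which called 0 probes in all (0%). At an unadjusted p under 0.05 it held 2 of the 7 keratin and uroplakin probes, those of Krt18 and Krt19, both lower in null RNA, against 3544 of all tested probes (17%), with 8.59% higher and 8.39% lower in null RNA. An exact permutation of the signs of 3 replicate values cannot go below p = 0.25.

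Krt7, a type II keratin, had opposite signs on the 2 slides. Its array ratios were −0.78, −0.33, −0.76 and −0.22 in replicate 1, 0.15 and 0.54 in replicate 2, and 0.29 and 0.84 in replicate 3. All arrays of replicate 1 were thus below 0, all arrays of slide 2 above it, and the slides did not overlap. Null RNA had 0.696 of the wild-type Krt7 signal in replicate 1 and 1.37 of it on slide 2. The mean over replicates was 0.13 ± 0.58 (SD, n = 3; limma, adjusted p = 0.789).

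Krt8, with Krt18 the first keratin pair made in the embryo, had array ratios of −1.06, −0.50, −1.02 and −0.36 in replicate 1 on the probe A_51_P242399, −0.21 and 0.12 in replicate 2, and 0.01 and 0.44 in replicate 3. The replicate values were −0.74, −0.04 and 0.23, with a mean of −0.18 ± 0.50 (SD, n = 3; limma, adjusted p = 0.656). Krt8 was thus at 0.600 of the wild-type level in replicate 1, and the slide 2 arrays lay on both sides of 0. The second probe, A_51_P242400, had −0.57, 0.04 and 0.16 in the 3 replicates and a mean of −0.12 ± 0.39 (SD, n = 3; limma, adjusted p = 0.719). Both probes showed the lower ratio in replicate 1, and both had lower ratios on arrays with null RNA in Cy5 than on their dye-swapped partners. The same dye difference was seen in every dye-swapped pair of Krt7 and Upk3a.

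Krt18, the partner of Krt8, did not follow it. Its array ratios were −0.09, −0.11, 0.07 and −0.16 in replicate 1, −0.34 and −0.37 in replicate 2, and −0.42 and −0.37 in replicate 3. The slide 2 arrays were all lower than the replicate 1 arrays, where Krt8 had the reverse order. The mean was −0.27 ± 0.18 (SD, n = 3; limma, adjusted p = 0.291), with a lower level in null RNA on 7 of 8 arrays. With median centring of each array in place of loess the sign turned (0.047).

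Krt19, a type I keratin of ducts that lacks the usual tail domain, was lower in null RNA on every array. Its ratios were −0.86, −0.77, −0.85 and −0.51 in replicate 1, −0.41 and −0.51 in replicate 2, and −0.17 on one array and −0.18 on the other in replicate 3. The mean was −0.46 ± 0.29 (SD, n = 3; limma, adjusted p = 0.271), which is 0.726 of the wild-type level. It was the 1 of the 7 keratin and uroplakin probes that was lower on every array, against 7.88% of all tested probes. In replicate 1, 1.66% of probes had a lower ratio than Krt19, and on slide 2, 13.8%.

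**Figure D2:**
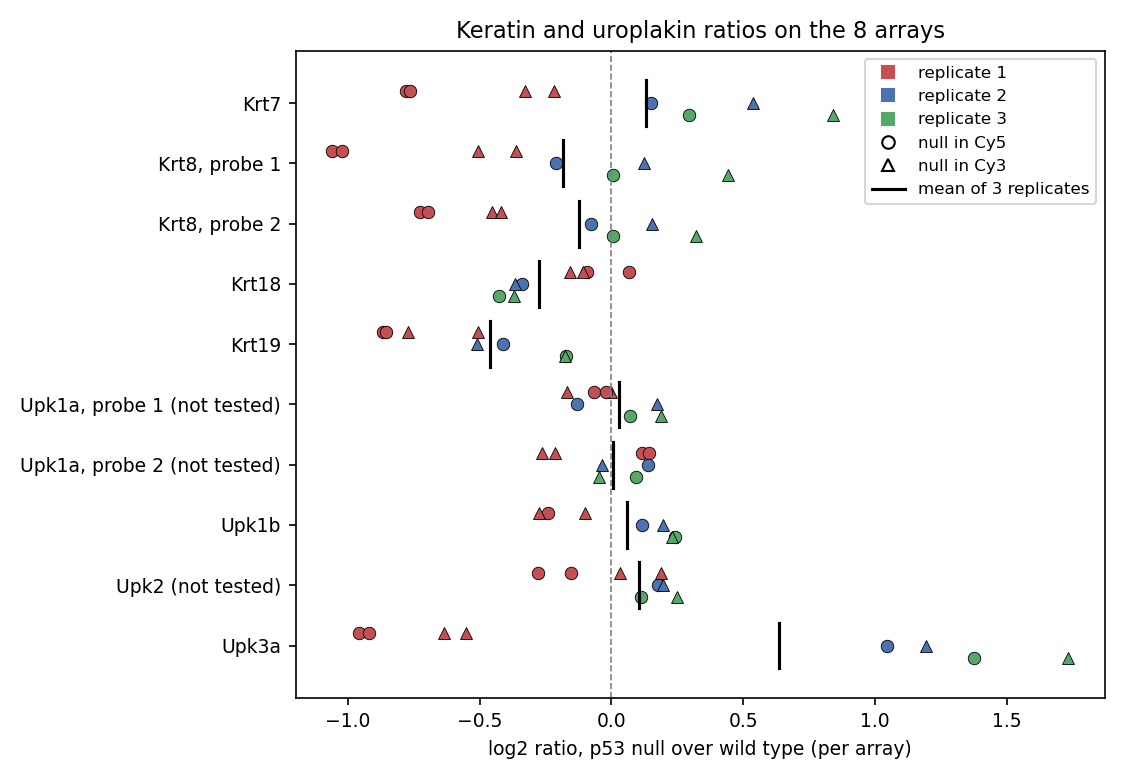
Log2 ratio of null over wild type (horizontal axis) on each array for the 10 keratin and uroplakin probes, coloured by replicate, with circles for null RNA in Cy5, triangles for null RNA in Cy3 and a bar at the mean of the 3 replicates. Upk3a runs between −0.96 and 1.73 with the slides apart, and Krt19 lies below 0 on all 8 arrays. For Krt8 and Upk1a, probe 1 is the one described first.

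Upk3a, the uroplakin whose loss in mice leaves small plaques and lets urine flow back to the kidney, had the widest spread over replicates of the 8 genes at the offset of 50 used here. With the processed signals Upk1b had an SD of 1.79 and Upk3a of 1.72. Its ratios were −0.96, −0.63, −0.92 and −0.55 in replicate 1, 1.05 and 1.19 in replicate 2, and 1.38 and 1.73 in replicate 3. The 2 slides lay on opposite sides of 0 with no overlap. Null RNA had 0.588 of the wild-type Upk3a signal in replicate 1 and 2.53 of it on slide 2. The mean was 0.64 ± 1.23 (SD, n = 3; limma, adjusted p = 0.521).

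Against all tested probes, Upk3a was near both ends. In replicate 1, 1.48% of probes had a lower ratio, and on slide 2, 0.326% had a higher one. The background-subtracted spot signal on slide 2 was 391.0 and 195.0 in null RNA, against 42.0 and 95.0 in wild-type RNA, in replicate 2. In replicate 3 it was 578.0 and 262.5 in null RNA, against 42.0 and 66.0 in wild-type RNA. In replicate 1 it was 190.0, 142.5, 190.5 and 137.0 in null RNA, against 311.0, 491.0, 299.0 and 434.0 in wild-type RNA. These signals are not corrected for the dye, and on each slide the brighter genotype was the same in both dye orientations. With the scanner's processed signals, which differ in background correction, dye normalization and offset, the ratios were −0.88, 1.76 and 2.36 in replicates 1, 2 and 3 (4.17-fold on slide 2). With an offset of 16 in place of 50 the mean was 0.81.

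Upk1b, the tetraspanin partner of Upk3a, followed the same order at a much lower signal. Its ratios were −0.10, −0.24 and −0.27 on 3 arrays of replicate 1, 0.12 and 0.20 in replicate 2, and 0.24 and 0.23 in replicate 3. The first array of replicate 1 had no value because its Upk1b spot was flagged as an outlier. The mean was 0.06 ± 0.24 (SD, n = 3; limma, adjusted p = 0.809). On slide 2 the background-subtracted signal was 23.0, 16, 34.0 and 17.0 in null RNA, against 6.0, 10, 4.5 and 7.0 in wild-type RNA. The measured level was 1.11-fold higher in null RNA in replicate 2 and 1.18-fold higher in replicate 3. Wild-type RNA was not well above background there, so the size of the difference is uncertain. These folds are neither lower limits nor support for a rise. With the processed signals the Upk1b ratios were −0.82, 2.39 and 2.15.

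For Upk1a and Upk2 the signals were too close to background to order the genotypes. Upk1a, the tetraspanin that travels with Upk2, had −0.06, 0.02 and 0.13 in the 3 replicates on one probe and −0.05, 0.05 and 0.02 on the other. Upk2 had −0.05, 0.19 and 0.18, and −0.80, 1.00 and 2.21 with the processed signals. Upk2 was well above background in null RNA on 2 arrays, 1 of replicate 1 and 1 of replicate 3.

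Krt7, Upk1b and Upk3a were thus lower on every measured array of replicate 1 and higher on every array of slide 2, which 11.5% of all tested probes were. By replicate means, 4 of the 7 probes were lower in replicate 1 and higher in replicates 2 and 3, against 24.7% of all tested probes, the fourth being the second Krt8 probe. Upk1b is in both counts, but it passed the filter through null RNA only. Its wild-type spots were not well above background on slide 2, so its place in them is not support for a rise. Lower values in all 3 replicates were found for 2 of the 7, Krt18 and Krt19, against 19.8% of all, and higher values in all 3 for 0 of the 7, against 20.6% of all.

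Without replicate 1 the fit rested on replicates 2 and 3 of 1 slide, and a wild-type extract shared by both would make their ratios alike and these p-values too small. Of the 7 keratin and uroplakin probes it called 3 higher and 2 lower in null RNA, against 30.8% of all probes higher and 25.3% lower, so calls were common throughout. Upk3a rose (1.34, adjusted p = 2.1e-14), as did Krt7 (0.46, adjusted p = 3.8e-06) in this limma fit. Upk1b was the third called higher (limma, adjusted p = 0.0182), but its wild-type spots were not well above background there, so the size of its difference is uncertain. Upk1b also passed the filter only through null RNA, the genotype where it was higher on slide 2. Its call is therefore not support for a rise. Krt18 fell by 0.37 (limma, adjusted p = 3.6e-05) and Krt19 fell by 0.32 (limma, adjusted p = 0.00058). The 2 Krt8 probes had 0.091 and 0.10 (limma, adjusted p = 0.305 and 0.228). With slide as a fixed block, 5 of the 7 probes were called against 44.5% of all, and with the replicate as a random block over all 8 arrays, none of the 6 that could be fitted were, against 6.06% of all.

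Levels of each RNA were set side by side, where the slides hold different RNAs and scans and all probes differed between replicate 1 and slide 2 by the SD given above. Upk3a had log2 levels of 7.45, 8.67 and 9.02 in null RNA of replicates 1, 2 and 3, against 8.22, 7.55 and 7.46 in wild-type RNA. Slide 2 was thus above replicate 1 by 1.39 in null RNA and had a difference of −0.71 in wild-type RNA. Krt7 had 8.95, 10.23 and 10.48 in null RNA, against 9.47, 9.88 and 9.91 in wild-type RNA, a slide difference of 1.41 in null and 0.43 in wild-type RNA. For Krt8 the levels were 12.94, 13.62 and 13.79 in null RNA, against 13.68, 13.66 and 13.56 in wild-type RNA, so the slides differed by 0.76 in null and −0.07 in wild-type RNA. The slide differences of null Upk3a and null Krt7 were larger than that SD, and those of null Krt8 and of wild-type Upk3a, Krt7 and Krt8 lay within it. For Krt7, Krt8, Krt18 and Krt19 the null RNA of replicate 1 was the lowest of the 6 RNAs. It was also lowest for Upk3a, by a narrow margin (7.45 against 7.46), but not for Upk1b.

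Krt18 and Krt19 were higher on slide 2 in both genotypes, as was Krt7. Krt18 had 13.94, 14.42 and 14.29 in null RNA, against 14.01, 14.77 and 14.68 in wild-type RNA. Its slide difference, 0.41 in null and 0.72 in wild-type RNA, lay within the SD over all probes given above. Krt19 had 9.32, 10.80 and 11.08 in null RNA, against 10.07, 11.27 and 11.25 in wild-type RNA. The slide difference of Krt19, 1.62 in null and 1.19 in wild-type RNA, was larger than any difference between genotypes within a replicate for this gene. Over replicates the log2 level of Krt19 was 10.40 ± 0.95 in null RNA and 10.86 ± 0.69 in wild-type RNA (SD, n = 3 each), so the genotypes overlapped when the replicates were not paired on their arrays. The null and wild-type ranges of the other tested members overlapped as well, Upk3a with 8.38 ± 0.82 in null and 7.74 ± 0.41 in wild-type RNA (SD, n = 3 each).

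**Figure D3:**
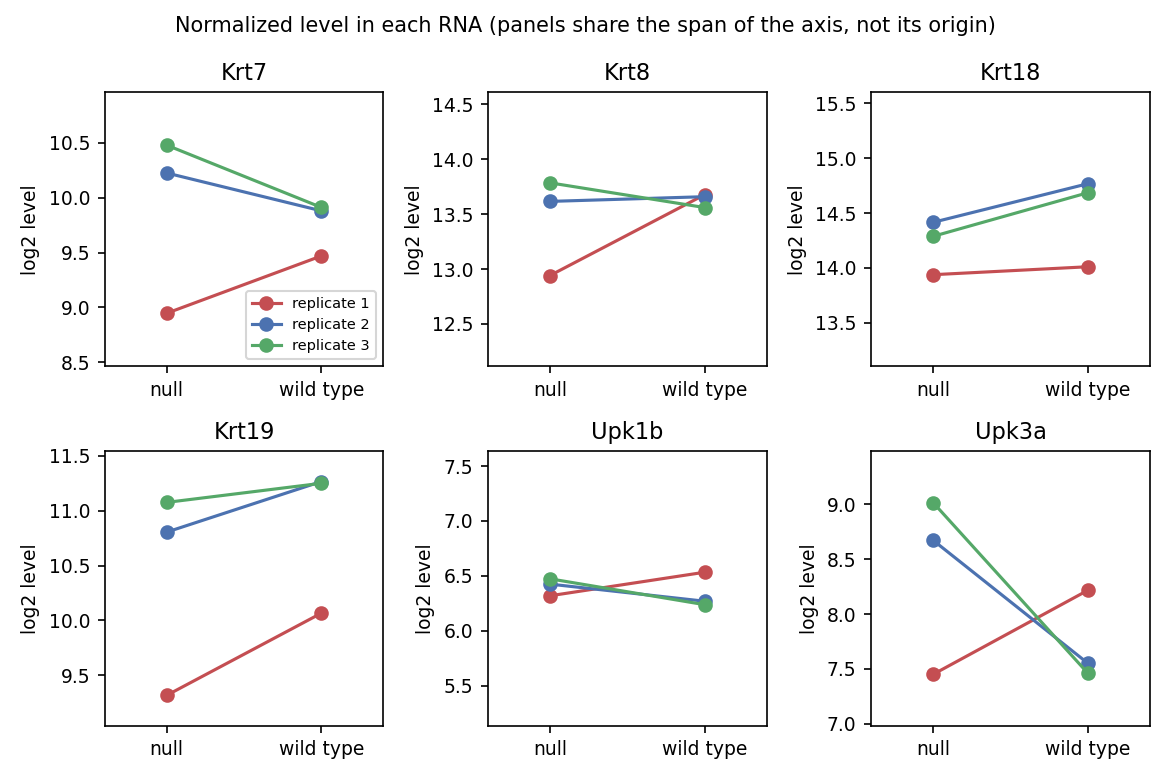
Normalized log2 level (vertical axis, the same span in each panel) of the 6 tested genes in null RNA (left) and wild-type RNA (right), with a line joining the 2 RNAs of a replicate. For Upk3a the line of replicate 1 crosses those of replicates 2 and 3, while for Krt19 all 3 lines end higher in wild-type RNA; Krt8 is shown by the probe described first.

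Other genes of the urothelium and of keratin filaments were taken from fixed lists, each gene by its brightest kept probe. The 6 tested keratin and uroplakin genes themselves had a median of −0.06 (−0.63, 0.06 and 0.23 in replicates 1, 2 and 3), with 3 higher and 3 lower in null RNA. All 12000 tested genes had a median of 0.00 (−0.03, 0.02 and 0.03), with 6011 higher and 5989 lower, and 26.5% were lower in replicate 1 and higher in replicates 2 and 3. No gene of any list passed the adjusted threshold, so the directions below are signs of means.

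Other keratins of simple epithelia were measured for 2 of 4 listed genes, and both had the order of Upk3a. Krt23 had −0.14, 1.21 and 1.25 in replicates 1, 2 and 3 (mean 0.77 ± 0.79, SD, n = 3). Krt20, the keratin of the umbrella cells that carry the plaques, had −0.07, 0.43 and 0.28 (mean 0.21 ± 0.26, SD, n = 3). Like Upk1b, Krt20 was well above background in null RNA on 8 arrays and in wild-type RNA on 4. Null RNA alone was enough for Krt20 to pass the filter, and its wild-type spots were not well above background on the other arrays. The order of Krt20 is therefore not support for a rise. Keratins of stratified epithelia were mostly near background, with 5 of 14 measured, 3 higher and 2 lower in null RNA. The 3 with the smallest p were the higher ones, of which Krt15 had 0.26 ± 0.18, Krt75 0.34 ± 0.29 and Krt17 0.09 ± 0.16 (SD, n = 3 each), and the list median was 0.09. Krt5, which marks basal urothelial cells, was well above background in null RNA on 5 arrays and in wild-type RNA on 4, and Krt14 on 1 and 0.

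Among 17 proteins related to the uroplakins or travelling with them, 13 were measured, 4 higher and 9 lower in null RNA, with a median of −0.10. Upk3b, the uroplakin of mesothelium, had −0.20, −0.06 and −0.05 in the 3 replicates. By these values it did not share the sign change of Upk3a. By the scanner's processed signals it did, at −0.57 in replicate 1 and 0.17 on slide 2. Whether Upk3b shared the sign change thus depended on the processing. Cd82, a tetraspanin, had −0.47 ± 0.21 (limma, adjusted p = 0.270), Mal, an apical sorting protein, had −0.22 ± 0.06, and Tspan1, another tetraspanin, had 0.34 ± 0.21 (SD, n = 3 each).

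Proteins that anchor keratin filaments at desmosomes and hemidesmosomes were measured for 16 of 17 genes, 5 higher and 11 lower, with a median of −0.06. Itgb4, the hemidesmosome integrin chain, had −0.52 ± 0.26, Dst, a plakin, had −0.36 ± 0.15, and Pkp2, a desmosome plaque protein, had −0.56 ± 0.45 (SD, n = 3 each). Of 13 other intermediate filament genes, 9 were measured, 5 higher and 4 lower, with a median of 0.09. Vim, the filament of mesenchyme, had −0.22 ± 0.08, Nefm, a neurofilament, had 0.28 ± 0.19, and Nes, a filament of progenitor cells, had 0.38 ± 0.51 (SD, n = 3 each).

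Transcription factors and signals of the urothelium were measured for 12 of 14 genes, 5 higher and 7 lower. Their median was −0.19 over all replicates and 0.06, −0.25 and −0.21 in replicates 1, 2 and 3. On slide 2 it thus lay below 0, as did Krt18 (−0.37) and Krt19 (−0.32), while Upk3a and Krt7 lay above 0. Upk1b also lay above 0 there, but its wild-type spots were not well above background. Elf3, an epithelial ETS factor, had −0.15, −0.67 and −0.74 (mean −0.52 ± 0.32, SD, n = 3; limma, adjusted p = 0.271). Rxra, a nuclear receptor, had −0.35 ± 0.13 and Klf5, a zinc-finger factor, had −0.34 ± 0.26 (SD, n = 3 each).

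Epithelial genes in general moved less between the slides than Upk3a. Of 16 genes, 14 were measured, 6 higher and 8 lower, with medians of −0.26, −0.13 and −0.00 in replicates 1, 2 and 3, and 5 were lower in replicate 1 and higher in the other two. The named ones were Esrp2, a splicing factor (−0.30 ± 0.10), Cldn3, a tight-junction claudin (−0.28 ± 0.17), and Rab25, a trafficking GTPase (−0.23 ± 0.12; SD, n = 3 each). The ureteric trunk and collecting duct list, which holds Krt7, had 17 of 18 measured, 9 higher and 8 lower, with medians of −0.29, 0.02 and 0.05. Scnn1g, a subunit of the epithelial sodium channel, had −0.84 ± 0.28 (limma, adjusted p = 0.270) and Aqp3, a basolateral water channel, had −0.40 ± 0.09 (SD, n = 3 each). Both were lower in all 3 replicates, as was Krt19, and 8 of the 17 genes were lower in replicate 1 and higher in replicates 2 and 3, as was Krt7.

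Markers of other tissue moved with the slides as well. The ureter smooth muscle list, all 9 measured, had medians of −0.65, 0.02 and 0.41 in replicates 1, 2 and 3, and 7 of 9 genes were lower in replicate 1 and higher in replicates 2 and 3. Its summed level was 7803, 13659 and 16388 in null RNA, against 11553, 13309 and 12765 in wild-type RNA. The mesothelium list, which holds Krt8, Krt19 and Upk1b, had 8 of 11 measured, a median of 0.02 and, without these members, a summed level of 10135, 10476 and 9003 in null RNA, against 8920, 8441 and 7960 in wild-type RNA. Outside the members, Gpm6a, Msln, Rspo1, Upk3b and Wt1 of this list were well above background in both RNAs on all 8 arrays. Bnc1 was so on 0 arrays in either RNA, and Lrrn4 on 0 in null and 2 in wild-type RNA. The ureteric tip list had 9 of 10 measured and a median of 0.05, the proximal tubule list 8 of 10 and 0.48, and the podocyte list 6 of 8 and −0.02. By replicate the proximal tubule medians were −0.22, 0.66 and 0.92, with 5 of 8 genes lower in replicate 1 and higher in the other two, and the podocyte medians −0.45, 0.04 and 0.20, with 3 of 6. Hypoxia and glycolysis genes, known from earlier results of these data to differ between the slides, were lower in null RNA for 18 of 18 measured of 19, with medians of −0.22, −1.93 and −1.80. Their summed level was 130557, 121373 and 115983 in null RNA, against 150244, 533091 and 503578 in wild-type RNA. The part of these markers in the keratin and uroplakin ratios was not tested.

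**Figure D4:**
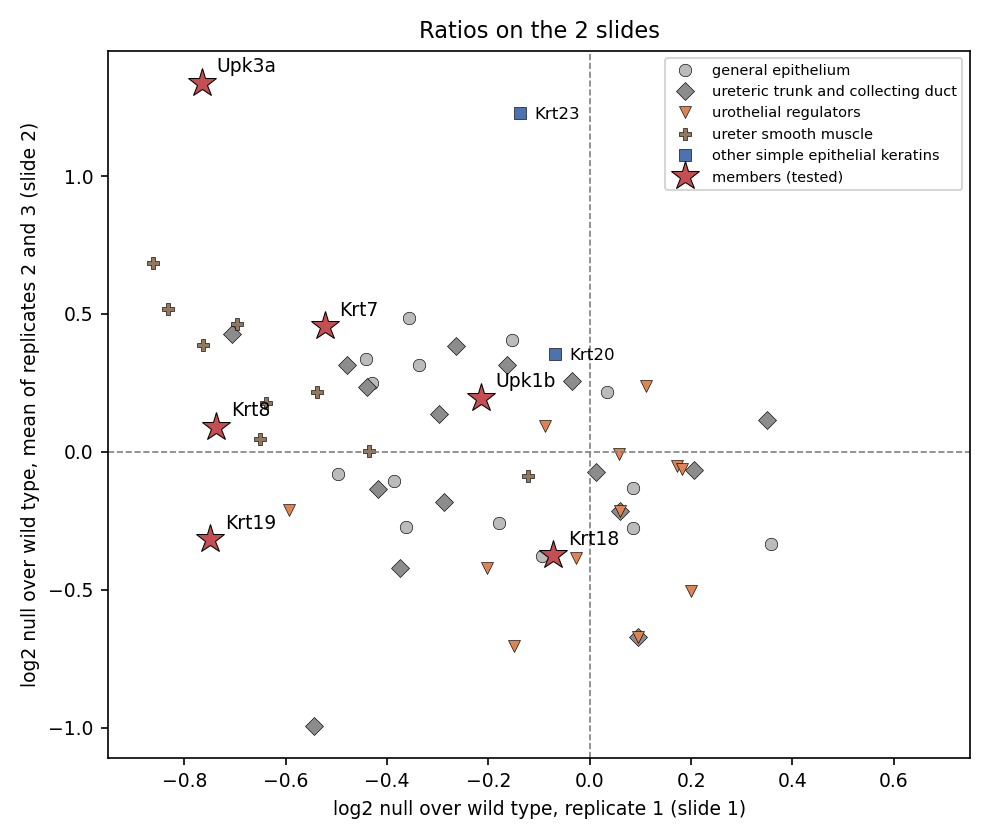
Log2 ratio of null over wild type in replicate 1 on slide 1 (horizontal axis) against the mean of replicates 2 and 3 on slide 2 (vertical axis), with a point for each measured gene; the tested keratin and uroplakin genes are stars. Upk3a, at −0.77 and 1.34, lies at the top left, and Krt23, at −0.14 and 1.23, lies at a like height but further right. The ureter smooth muscle genes lie mostly at the upper left, and Krt19 and Krt18 lie below 0 on both axes.

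The keratins and uroplakins differed in how many genes shared their ratios over the arrays, measured as the root mean square difference of the log2 array ratios (RMS) among 11994 other genes. Within an RMS of 0.2 there were 1888 genes for Upk1b (over 7 arrays), whose dim ratios lay near 0, 1083 for Krt18, 235 for Krt7, 187 for Krt8, 46 for Krt19 and 2 for Upk3a (over 8 arrays each). The 2 nearest Upk3a were Gemin4, of the SMN complex (RMS 0.129), and Tubb4b, a beta-tubulin (RMS 0.187). Nearest Krt19 were Rps6ka1, a ribosomal S6 kinase (RMS 0.0885), and Cdc42ep2, a Cdc42 effector (RMS 0.108). Nearest Krt7 were Maf1 and Nudt3 (RMS 0.0728 and 0.0918), nearest Krt8 Men1 and Mark2 (RMS 0.0733 and 0.0835), nearest Krt18 Plac8 and Pdgfc (RMS 0.0452 and 0.0619), and nearest Upk1b Nfam1 and Fam214a (RMS 0.0440 and 0.0522). Among the members the smallest difference was between Krt7 and Krt8 (RMS 0.304) and the largest between Krt18 and Upk3a (RMS 1.33). The filament partners Krt8 and Krt18 were 0.654 apart.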

How the data were processed

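RNA from kidneys of p53 null and wild-type embryos was hybridised on 8 Agilent arrays with 2 colours. The scanner files deposited by the authors give median brightness of spots and local background (linear intensity) and a log10 ratio of red to green. Per the file headers they were made with Feature Extraction 10.5.1.1, and the submitters' processing notes name 6.1. The deposited value table holds that log10 ratio turned to null over wild type (largest difference 4.94e-06), with 7732 to 14364 of 43379 spots empty. Its column medians were 0.0083, −0.0024, 0.0042 and 0.0015 (replicate 1), 0.00083 and 0.0064 (replicate 2), and 0.0064 and 0.011 (replicate 3). The direction of each array was taken from the dyes in the labels.

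Median spot signals were corrected with normexp (offset 50), which compresses dim ratios, and by loess within arrays in limma 3.58.1 under R 4.3.3. On the first array of replicate 1, 5 spots with local background over 100 units above the spot distorted the normexp fit and were left out of it. The 1639 control spots had weight 0, outlier spots were set missing, and 0 spots were saturated. Ratios were averaged within a dye orientation, then over both. Levels per RNA were loess and Aquantile values. Of 41174 probes, 25097 were named through RefSeq accessions. The filter kept 20880 probes that were well above background in one genotype on 50% or more of the arrays of a replicate, in all replicates, and 20865 of these could be tested. limma's two-sided fit of 3 replicate values against 0 had 4.23 degrees of freedom and Benjamini-Hochberg adjustment over these probes, and was tested on simulated data.

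Named were all 8 members, the 2 genes nearest each tested member by RMS, up to 3 genes of each related list by smallest p, and Trp53. Upk3b, Krt5, Krt14, Bnc1, Xist and the other mesothelium markers given by detection were added after values were seen. Members and lists were chosen with earlier results of these data known. Since arrays of a replicate share RNA, a fit of single arrays in which replicate was a random block (correlation 0.778) was an alternative, as were slide as a block, other corrections and filters, and samples left out.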

Additional observations from a re-analysis of the deposited data

How the results depend on the processing

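No probe passed the adjusted threshold over 3 replicates in limma, against 1240 with all 8 arrays and the replicate as a random block, 9277 with slide as a fixed block and 0 to 11699 with a replicate left out, the highest without replicate 1. At an unadjusted p under 0.05 there were 3544 probes, against 2271 with median centring, 10681 with slide as a block, 532 with 1 value per slide and 335 to 12563 with a replicate left out (335 without replicate 2, 883 without replicate 3, 12563 without replicate 1). The slide block takes its spread from 1 slide, and its 44.5% of probes called included 5 of the 7 keratin and uroplakin probes: the 2 of Krt8 (−0.32 and −0.24), Krt18 (−0.22), Krt19 (−0.53) and Upk3a (0.29). The replicate block called 6.06% of all probes and none of the 6 keratin and uroplakin probes fitted (Krt19 −0.47, limma, adjusted p = 0.0729); Upk1b lacks 1 array and could not be fitted. Of 124 values of the tested keratin and uroplakin probes, 100 kept sign and side of the threshold, 10 passed it and 14 turned in sign. Aquantile and the other filters leave a ratio as it is, and the deposited ratios repeat the processed signals. Part of this agreement was therefore fixed by the settings. Krt7 turned to −0.033 with slide as a block or 1 value per slide and −0.11 on arrays with null RNA in Cy5. The Krt8 probes turned to 0.12 and 0.18 with median centring, and 0.045 and 0.013 on arrays with null RNA in Cy3. Krt18 turned to 0.047 with median centring. Upk1b turned to −0.0094 with slide as a block or 1 value per slide. With a replicate left out, Krt7 lay between −0.089 (without replicate 3) and 0.46, the Krt8 probes between −0.39 and 0.091 and between −0.27 and 0.10 (both highest without replicate 1), and Upk1b between −0.029 (without replicate 3) and 0.20. The cause was not tested. Krt19 stayed below 0 and Upk3a above 0 in the mean under every alternative run. Krt19 was at −0.20 with median centring. Upk3a was at 0.18 without replicate 3, 0.39 without replicate 2 and 1.34 without replicate 1. Each of these Upk3a means included slide 2, where its ratios were larger in size than the −0.77 of replicate 1. The sign of its mean therefore does not show that the slides were alike. Of the probes not tested, those of Upk1a lay between −0.11 and 0.29, with either sign, and Upk2 between 0.025 and 0.80. The exclusion of 5 spots from the background fit and the fit without the first array of replicate 1 were chosen after seeing the data, as were the list medians. Signals near background limit Upk1a, Upk1b and Upk2.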
